A study of Arabidopsis thaliana with 29 samples.

Results

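The 10 genes described here belong to the synthesis of cuticular wax and its control in Arabidopsis thaliana: LACS2 (AT1G49430), KCS1 (AT1G01120), CER6 (AT1G68530), CER2 (AT4G24510), CER3 (AT5G57800), CER1 (AT1G02205), CYP96A15 (AT1G57750), CER4 (AT4G33790), WSD1 (AT5G37300) and MYB96 (AT5G62470). They were chosen by their identifiers, without the use of measured values, and all 10 were found among the 33681 loci of the expression table.

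RNA sequencing measured transcript levels in whole plants during the loss of soil water, in the mutant pp7l and in its background Col-0, written Col0. Plants were 3 weeks old and grown in soil under long days when watering stopped, and they were sampled after 0, 6, 9, 12 and 15 days without water (0 D to 15 D). The mutant pp7l carries a lesion in PP7L, which codes for a PP7-like phosphatase of the nucleus that chloroplasts need to develop. The samples' labels name the allele pp7l-2 and the series' own text names pp7l-1, so the plants are called pp7l. Each of the 5 pp7l groups held 3 libraries, 15 in all. The Col0 groups held 3 libraries each, except Col0 at 6 D with 2 (replicates 1 and 3), which makes 14. No transgene, hormone or other agent was named for either genotype. All plants of a later day had been without water, so age and lack of water cannot be told apart. It is not stated that replicates came from different plants or pots, and p-values measure only the spread between these samples.

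Cuticular wax is a mixture of very-long-chain lipids that coats the epidermis of shoots and limits the loss of water through the plant surface. Fatty acids are activated to acyl-CoA, lengthened by an elongase complex, and then leave by 2 routes. In the alkane route an aldehyde-linked step yields alkanes, which may be oxidised to secondary alcohols and ketones. In the alcohol route primary alcohols are made and may be joined to fatty acids as wax esters. MYB96 is known as a transcription factor that responds to abscisic acid and drought and activates wax genes in Arabidopsis.

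The 250 bases before the annotated start of 6 of the genes are printed here because these genes span the steps at which the transcript patterns parted: the alkane branch (CER1, CER3 and CYP96A15), the alcohol branch (CER4 and WSD1) and the main elongase enzyme (CER6). The sequences come from the RefSeq assembly TAIR10.1 and run 5′ to 3′ on the strand of the gene. Capitals mark ACGTG, the core of elements bound by abscisic acid-responsive factors, CNGTTA, a site read by MYB proteins, and an AC element in any of 4 forms, spelled ACCAAAC in the first form, ACCAACC in the second form, ACCTAAC in the third form and ACCTACC in the fourth form. All were searched on both strands, and a capital run written as the reverse complement lies on the other strand.
CER1, chr1:418166-418415 (+): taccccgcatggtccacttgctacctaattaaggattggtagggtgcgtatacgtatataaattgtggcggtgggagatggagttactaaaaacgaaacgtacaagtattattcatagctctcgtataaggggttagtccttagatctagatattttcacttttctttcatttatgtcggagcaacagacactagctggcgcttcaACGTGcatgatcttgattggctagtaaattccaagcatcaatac
CER3, chr5:23419934-23420183 (+): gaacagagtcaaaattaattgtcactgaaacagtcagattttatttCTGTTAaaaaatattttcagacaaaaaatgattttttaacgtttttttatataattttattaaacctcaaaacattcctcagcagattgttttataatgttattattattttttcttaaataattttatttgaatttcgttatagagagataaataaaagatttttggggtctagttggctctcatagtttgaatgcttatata
CYP96A15, chr1:21385710-21385959 (-): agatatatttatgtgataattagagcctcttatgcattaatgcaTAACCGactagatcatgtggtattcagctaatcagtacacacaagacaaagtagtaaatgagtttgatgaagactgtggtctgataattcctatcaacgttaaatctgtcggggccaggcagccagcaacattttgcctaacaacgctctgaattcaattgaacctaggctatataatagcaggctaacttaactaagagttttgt
CER4, chr4:16207957-16208206 (-): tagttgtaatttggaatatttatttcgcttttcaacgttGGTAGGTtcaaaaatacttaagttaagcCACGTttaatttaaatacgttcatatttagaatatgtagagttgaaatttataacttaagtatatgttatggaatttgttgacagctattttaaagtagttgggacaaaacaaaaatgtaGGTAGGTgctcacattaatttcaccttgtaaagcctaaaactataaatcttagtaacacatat
WSD1, chr5:14767176-14767425 (+): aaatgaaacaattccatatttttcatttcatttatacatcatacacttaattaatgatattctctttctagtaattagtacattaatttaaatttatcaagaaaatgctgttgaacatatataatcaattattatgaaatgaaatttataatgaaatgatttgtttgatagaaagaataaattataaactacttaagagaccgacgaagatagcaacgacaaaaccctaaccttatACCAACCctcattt
CER6, chr1:25715025-25715274 (-): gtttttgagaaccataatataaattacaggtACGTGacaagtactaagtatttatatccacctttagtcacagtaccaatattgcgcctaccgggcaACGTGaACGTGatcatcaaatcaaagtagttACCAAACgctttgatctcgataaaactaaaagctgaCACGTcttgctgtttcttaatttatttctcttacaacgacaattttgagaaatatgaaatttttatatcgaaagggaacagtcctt
CER6 held 4 ACGTG matches and 1 AC element in its window, and CER4 held 1 ACGTG match and 2 AC elements. CER1 held 1 ACGTG match, which began 44 bases before the gene. CER3 and CYP96A15 each held 1 CNGTTA match, and WSD1 held 1 AC element. Of the others, CER2 held 1 ACGTG match and 1 AC element, LACS2 held 1 AC element, and MYB96 and KCS1 held no match. Among 27443 windows of the same length in the annotation, 22.9% held ACGTG, 26.6% held CNGTTA and 13.7% held an AC element. Matches are a description of these letters and were not tied to any factor in these data.

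In the same annotation, CER1 spans chr1:418416-422579 (+) with 8 to 10 exons by transcript, and CER3 spans chr5:23420184-23424117 (+) with 11. CYP96A15 lies at chr1:21383812-21385709 (-), CER6 at chr1:25712414-25715024 (-), CER4 at chr4:16204096-16207956 (-) and WSD1 at chr5:14767426-14770396 (+). MYB96 lies at chr5:25078991-25081141 (-), KCS1 at chr1:57164-59215 (-) and LACS2 at chr1:18290942-18295905 (+). CER2, at chr4:12660687-12662656 (+), overlaps 2 genes on the other strand, the lncRNA gene AT4G07275 and the protein-coding gene AT4G24520. Whether the counting used the strand is not given in the sources used here, so the values of CER2 are uncertain to that extent.

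Values are given in TPM, a length-normalised share of each library's transcripts, so levels may be compared between genes. The number of reads is not known. Tests were run with limma on log2(TPM + 1) for 18757 loci with at least 1 TPM in at least 3 libraries, and p-values were adjusted by Benjamini-Hochberg over all of these loci within each comparison at 0.05. The scale understates fold changes of genes near 1 TPM. All 10 wax genes passed the filter, but CER4 reached 1 TPM in 9 of 29 libraries and CYP96A15 in 11, mostly Col0 libraries of 6 D to 12 D, and WSD1 in 15, of which 8 were pp7l and 7 Col0 libraries, while CER3 and CER6 reached it in all 29.

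Several Col0 libraries stood apart. Nuclear rRNA loci took 25.0% of the total in Col0 12 D replicate 3, and 27.5% and 61.2% in Col0 15 D replicates 1 and 3. In Col0 6 D replicate 1, plastid loci took 86.7%, and the 2 libraries of that group differed several-fold for most wax genes. A single locus, AT1G15405, took 46.0% of Col0 15 D replicate 2. Because such shares squeeze every other gene, each result is given for TPM as deposited and after median-of-ratios scaling, called scaled here. As deposited, the median change of all tested genes was 0.86 (log2) in Col0 at 9 D versus 0 D, 0.97 at 12 D and -0.23 at 15 D, and it was 1.27 for pp7l versus Col0 at 15 D. After scaling these medians were 0.03, 0.02, 0.05 and 0.00. A gene is said to rise or fall where it passed the test as deposited in the model of all 10 groups, and a call lost or turned by scaling is named beside it. PP7L itself (AT5G10900) stood at 0.586 ± 0.184 TPM in pp7l and 0.200 ± 0.0996 TPM in Col0 at 0 D (SD, n = 3 each), near the floor in both, so its level did not check the genotype.

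In Col0 all 10 wax genes rose at 9 D against 0 D as deposited, where 64.8% of all tested loci rose. CER6, KCS1 and MYB96 lost that call after scaling. The 9 genes other than MYB96 fell between 9 D and 12 D in both fits, where 21.6% of all loci fell as deposited and 27.6% scaled. In pp7l MYB96 rose and KCS1 fell before 15 D as deposited, and the other 8 were not called in the model of all groups. With array weights or with the compared groups alone, further genes were called in pp7l, CER1 and CER6 among them. At 6 D and 9 D these fits also called more of all loci. At 15 D all 10 were higher in pp7l than in Col0 as deposited, where 77.5% of all loci were. After scaling 7 of them were higher, where 30.9% of all loci were.

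**Figure D1:**
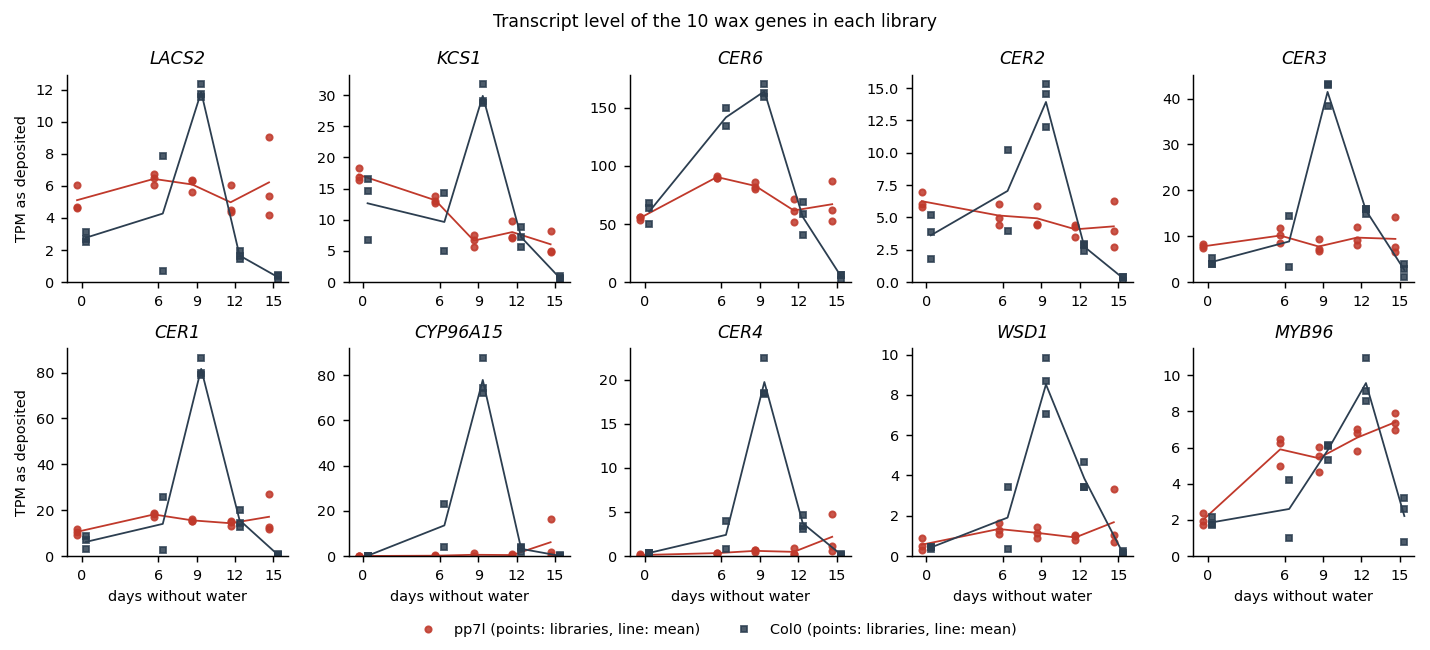
Transcript level (TPM as deposited, y axis) of the 10 wax genes against days without water (x axis), with pp7l as red circles drawn left of Col0 as dark squares; each point is a library and lines join group means. The Col0 libraries at 9 D lie above all others for 9 genes, and for MYB96 the highest points are Col0 libraries at 12 D.

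LACS2 encodes a long-chain acyl-CoA synthetase that activates fatty acids for wax and cutin. Its level in Col0 was 12.3, 11.5 and 11.7 TPM at 9 D, against 2.72, 3.12 and 2.48 TPM at 0 D. The groups did not overlap, as for 82.2% of all loci. LACS2 rose by 1.77 ± 0.33 (log2 ± SE, adjusted p = 4.97e-05) as deposited and by 0.62 ± 0.21 scaled (adjusted p = 0.0156). At 12 D it stood at 1.91, 1.44 and 1.63 TPM in Col0, a difference from 0 D of -0.50 ± 0.33 that did not pass as deposited (adjusted p = 0.171) and of -1.53 ± 0.21 scaled (adjusted p = 5.81e-07). In pp7l all 15 libraries lay between 4.21 and 9.06 TPM, and no day differed from 0 D as deposited. After scaling 12 D and 15 D were lower than 0 D, by -0.53 ± 0.21 at 15 D (adjusted p = 0.0408). LACS2 was higher in pp7l than in Col0 at 12 D, by 1.16 ± 0.33 (adjusted p = 0.00581), and by the same amount after scaling (1.16 ± 0.21).

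KCS1, a condensing enzyme of the fatty acid elongase with a broad role in the shoot, was the only wax gene that fell in pp7l as deposited in the model of all groups. CER2 was also lower under some alternatives, and CER3, LACS2 and CER6 were lower on some days after scaling. The level of KCS1 in pp7l was 18.4, 16.4 and 16.9 TPM at 0 D and 12.6, 13.0 and 13.8 TPM at 6 D. It was 6.75, 7.56 and 5.65 TPM at 9 D, 9.78, 7.16 and 7.12 TPM at 12 D, and 5.06, 4.90 and 8.23 TPM at 15 D. None of the 4 later pp7l groups overlapped 0 D, although the difference at 6 D did not pass the test as deposited (-0.37 ± 0.30). Of all loci, 60.8%, 65.3%, 69.6% and 74% did not overlap 0 D on these days. KCS1 fell by 1.26 ± 0.30 (log2) at 9 D (adjusted p = 0.00227), by 1.03 ± 0.30 at 12 D (adjusted p = 0.00716) and by 1.40 ± 0.30 at 15 D (adjusted p = 0.000395), and the falls were 1.77, 1.65 and 2.14 after scaling. In Col0 it stood at 31.7, 29.1 and 28.8 TPM at 9 D, against 14.5, 16.6 and 6.83 TPM at 0 D. That rise of 1.26 ± 0.30 as deposited (adjusted p = 6.34e-04) did not pass after scaling, where the change was -0.05 ± 0.21 (adjusted p = 0.866).

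CER6 (KCS6), the main condensing enzyme for wax precursors in stems and leaves, was the most abundant wax transcript in every group. Col0 had 64.0, 68.3 and 49.6 TPM at 0 D, 134 and 150 TPM at 6 D, and 160, 170 and 163 TPM at 9 D. It then had 68.9, 59.0 and 40.4 TPM at 12 D and 6.45, 5.83 and 1.94 TPM at 15 D. CER6 was thus already high in both Col0 libraries of 6 D as deposited. It rose there by 1.22 ± 0.35 (adjusted p = 0.0120) as deposited and by 1.06 ± 0.27 scaled (adjusted p = 0.00222). Scaled levels at 6 D were 382 TPM in replicate 1 and 123 TPM in replicate 3, against 97.4 to 109 TPM at 0 D. Replicate 1 thus carried most of the scaled rise. Without Col0 0 D replicate 3 the adjusted p at 6 D as deposited was 0.0519. At 9 D the rise was 1.44 ± 0.31 as deposited (adjusted p = 2.96e-04) and 0.06 ± 0.24 scaled (adjusted p = 0.85). By 15 D CER6 had fallen by 3.52 ± 0.31 against 0 D (adjusted p = 3.96e-10) and by 3.0 ± 0.24 scaled. This was the largest fitted fall of the 10 genes as deposited, on the scale of log2(TPM + 1). By the ratio of mean TPM KCS1 fell further, from 12.6 to 0.697 TPM, against 60.6 to 4.74 TPM for CER6. In pp7l CER6 had 53.5, 56.0 and 56.3 TPM at 0 D, 89.6, 90.0 and 91.7 TPM at 6 D, and 82.1, 86.1 and 80.1 TPM at 9 D, and it ranged from 51.9 to 86.9 TPM at 12 D and 15 D. The libraries of 6 D and 9 D lay above those of 0 D without overlap, where 60.8% and 65.3% of all loci did not overlap. No day passed the test against 0 D as deposited, but 6 D and 9 D were called higher with array weights and with the compared groups alone. After scaling 15 D was lower than 0 D (-0.62 ± 0.24, adjusted p = 0.0433).

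CER2, a BAHD-family protein that works with CER6 in making the longest acyl chains, kept to lower levels. In Col0 it stood at 15.3, 12.0 and 14.5 TPM at 9 D, against 3.91, 5.19 and 1.75 TPM at 0 D. It rose by 1.77 ± 0.28 (adjusted p = 6.51e-06), and by 0.59 ± 0.20 scaled (adjusted p = 0.0175). By 12 D CER2 in Col0 was at 2.40 to 2.91 TPM, within the range of 0 D. In pp7l its group means were 6.26 ± 0.622 TPM at 0 D, 5.15 ± 0.797 TPM at 6 D, 4.93 ± 0.834 TPM at 9 D, 4.08 ± 0.499 TPM at 12 D and 4.31 ± 1.81 TPM at 15 D (SD, n = 3 each). None of these differences passed the test as deposited, and all 4 later days were lower than 0 D after scaling, by -0.60 to -1.19 (adjusted p from 0.0251 to 4.51e-05).

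CER3 and CER1 act together at the step that gives alkanes, the most abundant wax lipids of Arabidopsis. CER1 in Col0 stood at 7.08, 8.55 and 2.89 TPM at 0 D, 2.51 and 25.5 TPM at 6 D, and 79.7, 86.2 and 79.0 TPM at 9 D. It then stood at 20.0, 14.4 and 12.6 TPM at 12 D and at 0.708, 0.594 and 0.255 TPM at 15 D. The 9 D libraries lay above every other library of the series, and the 15 D libraries below every other. CER1 rose at 9 D by 3.62 ± 0.44 (adjusted p = 1.77e-07) and by 2.36 ± 0.29 scaled (adjusted p = 4.53e-07), and the ratio of the group means was 13.2. Between 9 D and 12 D it fell by 2.33 ± 0.44 (adjusted p = 8.89e-05), with -2.42 ± 0.29 scaled. Against 0 D it remained higher at 12 D as deposited (1.29 ± 0.44, adjusted p = 0.00998), but the scaled change was -0.07 ± 0.29, and without Col0 0 D replicate 3 the adjusted p was 0.0909. At 15 D it fell by 2.15 ± 0.44 against 0 D (adjusted p = 1.67e-04), with -2.17 ± 0.29 scaled.

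In pp7l CER1 had 11.9, 9.24 and 10.6 TPM at 0 D, 18.5, 17.0 and 18.9 TPM at 6 D, and 15.3, 16.2 and 15.1 TPM at 9 D. It had 14.7, 13.0 and 15.2 TPM at 12 D and 11.8, 12.5 and 27.1 TPM at 15 D. Levels at 6 D, 9 D and 12 D lay above those of 0 D without overlap, and 60.8%, 65.3% and 69.6% of all loci did not overlap there either. The changes of 0.73 ± 0.44, 0.53 ± 0.44 and 0.41 ± 0.44 did not pass the test (adjusted p = 0.244, 0.378 and 0.467). Ordered by group mean, Col0 at 9 D came first with 81.6 ± 4.00 TPM (SD, n = 3). The 4 later pp7l groups and Col0 at 12 D followed between 14.3 ± 1.15 and 18.1 ± 1.03 TPM (SD, n = 3 each), where neighbours overlapped. Col0 at 6 D had 14.0 ± 16.3 TPM (SD, n = 2) in libraries far apart. pp7l at 0 D had 10.6 ± 1.32 TPM and Col0 at 0 D had 6.17 ± 2.94 TPM (SD, n = 3 each), these 2 without overlap, as for 56% of all loci. Col0 at 15 D came last with 0.519 ± 0.236 TPM (SD, n = 3).

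CER3 followed CER1 up in Col0 but not all the way down. It stood at 42.9, 43.1 and 38.3 TPM at 9 D, against 4.05, 5.23 and 3.97 TPM at 0 D, a rise of 2.98 ± 0.34 (adjusted p = 7.94e-08) and of 1.73 ± 0.17 scaled (adjusted p = 1.72e-08). At 15 D the Col0 libraries held 3.84, 2.96 and 1.10 TPM, all below those of 0 D, where 53.1% of all loci did not overlap. The difference of -0.65 ± 0.34 did not pass the test (adjusted p = 0.113), nor did the scaled one of -0.15 ± 0.17, and it passed as deposited without Col0 15 D replicate 1 (-0.90 ± 0.37, adjusted p = 0.0453). In pp7l CER3 ranged from 6.48 to 14.2 TPM over all 15 libraries, with no change from 0 D as deposited. After scaling 9 D and 15 D were lower than 0 D, by -0.59 ± 0.17 at 15 D (adjusted p = 0.00685).

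CYP96A15, the midchain alkane hydroxylase that makes secondary alcohols and ketones, mainly of stem wax, had the widest range. In Col0 it had 0.179, 0.0675 and 0.122 TPM at 0 D, 4.07 and 23.0 TPM at 6 D, and 87.4, 72.1 and 74.1 TPM at 9 D. It had 4.11, 3.62 and 1.83 TPM at 12 D and 0.291, 0.0368 and 0.0289 TPM at 15 D. A transcript barely present before the treatment thus reached the level of CER1 at 9 D and was close to its start again at 15 D. It rose by 3.30 ± 0.60 at 6 D (adjusted p = 3.04e-04) and by 6.13 ± 0.54 at 9 D (adjusted p = 1.09e-09), with 3.71 ± 0.48 and 5.42 ± 0.43 scaled. From 9 D to 12 D it fell by 4.28 ± 0.54 (adjusted p = 2.85e-07), with -4.20 ± 0.43 scaled.

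In pp7l CYP96A15 was listed at 0 in 2 libraries of 0 D and at 0.0464 TPM in the other. It lay between 0.044 and 1.42 TPM in the 9 libraries of 6 D to 12 D. At 15 D the pp7l libraries had 0.410, 1.70 and 16.2 TPM, so that replicate 3 carried most of the group mean. The rise at 15 D against 0 D was 1.99 ± 0.54 (adjusted p = 0.00305), with 1.58 ± 0.43 scaled, and without pp7l 15 D replicate 3 it was 0.94 ± 0.40 (adjusted p = 0.0548).

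CER4, the alcohol-forming acyl-CoA reductase of the alcohol route, was also highest in Col0 at 9 D, where it lay below CYP96A15. The mean of CER4 lay above that of CYP96A15 in Col0 at 0 D, 12 D and 15 D, and in pp7l at 0 D to 12 D. Col0 had 22.4, 18.5 and 18.3 TPM at 9 D, against 0.340, 0.326 and 0.392 TPM at 0 D. It rose by 3.93 ± 0.32 (adjusted p = 2.77e-10) and by 3.11 ± 0.23 scaled (adjusted p = 2.37e-10), and the ratio of group means was 56.0. At 12 D Col0 still held 4.66, 3.05 and 3.43 TPM, a rise of 1.79 ± 0.32 over 0 D (adjusted p = 1.34e-05) and of 0.99 ± 0.23 scaled. In pp7l the level stayed under 1 TPM in every library through 12 D and was 0.6, 1.14 and 4.81 TPM at 15 D. The pp7l rise at 15 D was 1.29 ± 0.32 (adjusted p = 0.00138), 0.90 ± 0.23 scaled, and 0.74 ± 0.27 without replicate 3 (adjusted p = 0.0247).

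WSD1, the wax ester synthase that joins the alcohols made by CER4 to fatty acids, reached 9.82, 7.07 and 8.67 TPM in Col0 at 9 D, against 0.361, 0.451 and 0.455 TPM at 0 D. It rose by 2.73 ± 0.29 (adjusted p = 3.25e-08), with 1.93 ± 0.21 scaled. The fitted drop to 12 D was the smallest among the 9 enzymes, to 3.45, 4.66 and 3.44 TPM (-0.97 ± 0.29, adjusted p = 0.00846, and -1.0 ± 0.21 scaled). In pp7l WSD1 ranged from 0.322 to 3.31 TPM, highest in replicate 3 of 15 D, and no change from 0 D passed the test (15 D: 0.67 ± 0.29, adjusted p = 0.0567). The 15 D difference passed as deposited without any 1 of 3 libraries of these groups, pp7l 0 D replicate 3 or pp7l 15 D replicate 1 or 2 (adjusted p = 0.0169 to 0.0469), and was 0.26 ± 0.28 without pp7l 15 D replicate 3.

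MYB96, the regulator, kept a different time course from the enzymes. Col0 had 1.69, 2.14 and 1.76 TPM at 0 D, 0.994 and 4.21 TPM at 6 D, and 6.09, 5.30 and 6.12 TPM at 9 D. It had 8.59, 9.14 and 11 TPM at 12 D and 3.23, 2.62 and 0.783 TPM at 15 D. Its highest group in Col0 was therefore 12 D, when the enzymes had already fallen. MYB96 rose by 1.26 ± 0.27 at 9 D as deposited (adjusted p = 2.84e-04), although the scaled rise of 0.21 ± 0.13 did not pass (adjusted p = 0.182). At 12 D it rose by 1.88 ± 0.27 (adjusted p = 8.47e-07) and by 0.68 ± 0.13 scaled (adjusted p = 4.90e-05). Between 12 D and 9 D the difference was 0.62 ± 0.27 as deposited (adjusted p = 0.0655) and 0.47 ± 0.13 scaled (adjusted p = 0.00318).

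In pp7l MYB96 was the only gene of the 10 that rose on every later day. Libraries held 1.74, 1.94 and 2.38 TPM at 0 D, 6.24, 6.49 and 4.97 TPM at 6 D, and 4.64, 5.55 and 6.05 TPM at 9 D. They held 7.00, 5.80 and 6.82 TPM at 12 D and 6.97, 7.36 and 7.88 TPM at 15 D. No later library overlapped 0 D, where 60.8% to 74% of all loci did not overlap on a single day. The rises were 1.19, 1.09, 1.32 and 1.48 (SE 0.27 each, adjusted p = 0.00314, 0.00373, 4.38e-04 and 9.26e-05), and 0.87, 0.64, 0.76 and 0.77 after scaling (SE 0.13 each).

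**Figure D2:**
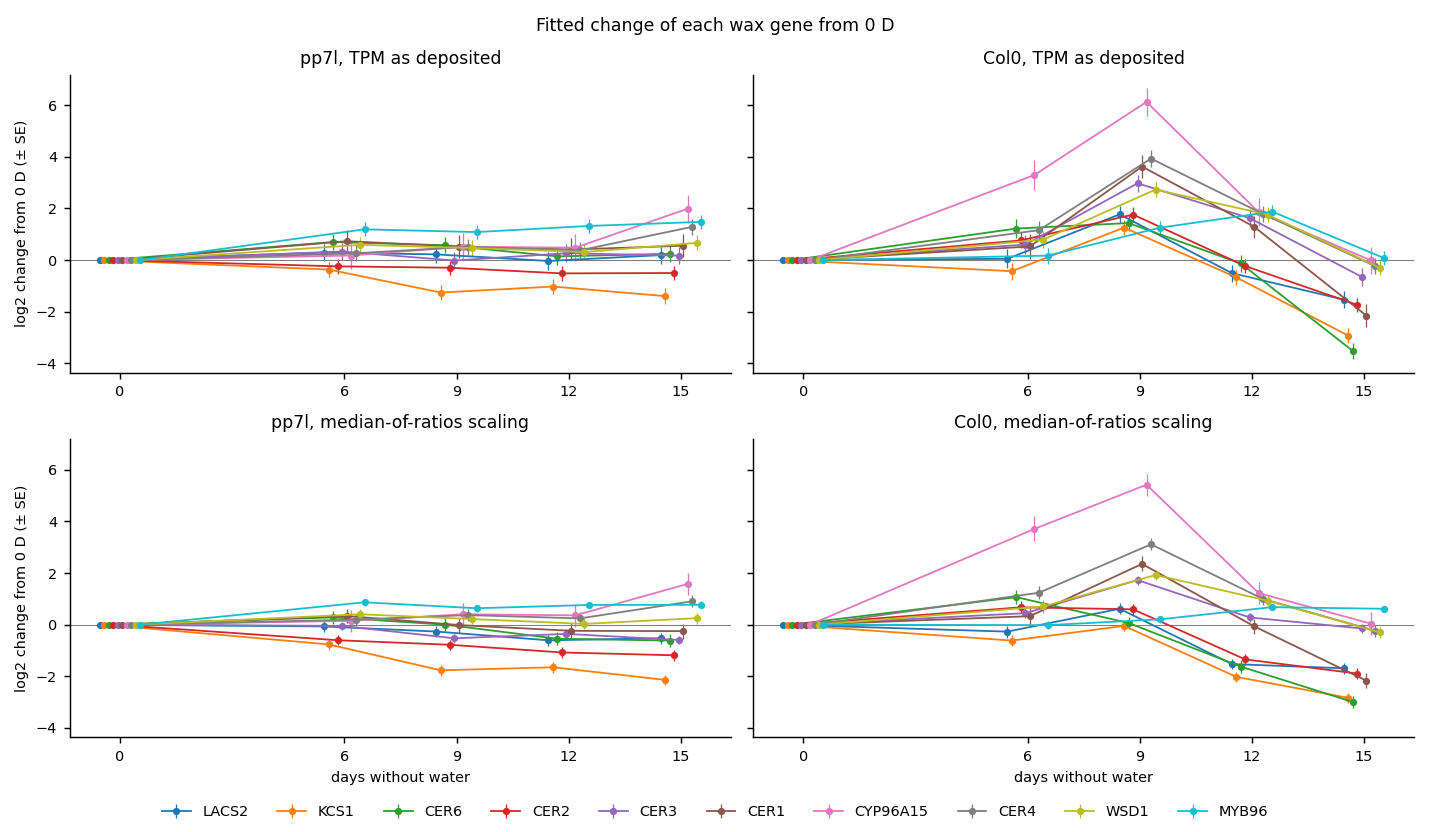
Fitted log2 change from 0 D with its standard error (y axis) against days without water (x axis) for each wax gene, in pp7l (left) and Col0 (right), for TPM as deposited (top) and after median-of-ratios scaling (bottom). In Col0 CYP96A15 reaches 6.13 at 9 D as deposited and 5.42 scaled, while in pp7l no gene exceeds 1.99.

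The counts over the 10 genes were read against all tested loci. At 9 D in Col0, 10 of 10 wax genes rose as deposited, where 64.8% of all loci rose, and 7 of 10 rose after scaling, where 26.2% did. None of the 10 was lower after scaling, where 25.1% of all loci were. The 3 that lost the call were CER6, KCS1 and MYB96. The median change of the 10 was 2.25 as deposited and 1.17 scaled, beside 0.86 and 0.03 for all loci. The groups of all 10 genes did not overlap at 9 D as deposited, as for 82.2% of all loci. Leaving out any single library left 10 calls.

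At 6 D in Col0, CYP96A15, CER6 and CER4 rose (3 of 10, background 16%) and none fell (background 9.34%). After scaling 5 rose (background 25.3%) and KCS1 fell (background 28.3%). With array weights limma called none of the 10 (0 at an unadjusted p under 0.05), and 2 of all 18757 loci. With the compared groups alone it called none as well (3 at an unadjusted p under 0.05), and 0 of all loci, so neither count is particular to the wax genes. These counts rest on 2 unlike libraries. Leaving out either of them leaves 1 library at 6 D, here and in the comparisons of pp7l with Col0, and that library is then assumed to vary like the other groups. Without Col0 6 D replicate 1, CER1 (1.99), CER3 (1.51), CER2 (1.35), WSD1 (1.64), LACS2 (1.23) and MYB96 (0.87) also rose, and without replicate 3 LACS2 was lower (-1.13 ± 0.26, adjusted p = 8.20e-04), KCS1 was lower (-1.11 ± 0.33, adjusted p = 0.00737) and CER4 lost its call (0.44 ± 0.38). CYP96A15 rose by 4.42 without replicate 1 and by 2.18 without replicate 3, and CER2 rose by 1.01 without Col0 0 D replicate 2 (adjusted p = 0.0282). The 4 libraries that stood apart in rRNA or plastid share were Col0 6 D replicate 1, 12 D replicate 3, and 15 D replicates 1 and 3. Without them Col0 at 6 D is replicate 3 alone, and the changes as deposited are those given for the omission of replicate 1.

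At 12 D in Col0, CER1, CER3, CYP96A15, CER4, WSD1 and MYB96 rose (6 of 10, background 61.9%) and KCS1 fell (1 of 10, background 11.9%). After scaling CYP96A15, CER4, WSD1 and MYB96 stayed higher (background 35.1%), and CER6, CER2, KCS1 and LACS2 were lower (background 34.6%). Both shares of higher genes were near those of all loci. KCS1 fell by 0.67 ± 0.30 as deposited (adjusted p = 0.0458) and lost this call without any 1 of 4 libraries, Col0 0 D replicate 1 or 2 or Col0 12 D replicate 1 or 3 (adjusted p = 0.0789 to 0.227), and without any 1 of 17 libraries of other groups (adjusted p = 0.0503 to 0.0527). It fell by 1.03 without Col0 0 D replicate 3. Without the 4 libraries that stood apart, LACS2 was lower as deposited and KCS1 was not called.

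The step from 9 D to 12 D in Col0, a comparison added after the values were seen, was a fall of nearly the whole set. Of the 10, 9 fell, where 21.6% of all loci did, and none rose, where 23.4% did. After scaling the same 9 genes were lower (background 27.6%) and MYB96 was higher (background 24.8%). The median of the 10 was -1.96 both as deposited and scaled, beside 0.09 as deposited for all loci. The falls ran from -0.97 for WSD1 to -4.28 for CYP96A15. Without the 4 libraries named above the same 9 genes fell and MYB96 rose in both fits.

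At 15 D in Col0, CER1, CER6, CER2, KCS1 and LACS2 fell against 0 D, 5 of 10 where 34.7% of all loci fell, and none rose, where 16.7% did. The same 5 were lower after scaling (background 34%), and MYB96 was higher by 0.61 ± 0.13 (1 of 10, background 37.8%). KCS1 went to 0.922, 0.668 and 0.500 TPM at 15 D, against 14.5, 16.6 and 6.83 TPM at 0 D (-2.93 ± 0.30, adjusted p = 4.13e-09, and -2.84 ± 0.21 scaled). CER3, CYP96A15, CER4 and WSD1 did not differ from 0 D in either fit at 15 D. Without the 4 libraries that stood apart the changes of the same 5 genes were below 0. That leaves Col0 at 15 D with 1 library, replicate 2, assumed there to vary like the other groups. In it AT1G15405 took 46.0% of the total. Against 12 D, a comparison also added after the values were seen, all 10 fell, as did 81.5% of all loci, and 7 of 10 were lower after scaling (background 17.4%), with 5 of 10 lower once the 4 libraries were also left out. The 3 that lost the call by scaling were CER3 (-0.43), MYB96 (-0.06) and LACS2 (-0.17). In whole plants, fewer cells of a type and less RNA per cell cannot be told apart.

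In pp7l the counts depended on how the spread was estimated. In the model of all groups, 1 of the 10 rose at 6 D (background 17.5%), at 9 D (27.7%) and at 12 D (37.8%), each time MYB96, and 3 rose at 15 D (49.3%), MYB96, CYP96A15 and CER4. KCS1 was the 1 gene that fell at 9 D (background 5.06%), 12 D (6.31%) and 15 D (5.7%), and none fell at 6 D (3.9%). After scaling the same genes were higher (1, 1, 1 and 3 of 10, with backgrounds of 14.8%, 16.7%, 19.5% and 21.8%). The lower ones after scaling numbered 2 at 6 D, 3 at 9 D and 12 D and 5 at 15 D (backgrounds of 17%, 20.4%, 22% and 22.8%), and KCS1 and CER2 were among them on each day. The others were CER3 at 9 D, LACS2 at 12 D, and CER3, CER6 and LACS2 at 15 D. Of these, CER3, CER6 and LACS2 at 15 D had changes above 0 as deposited (0.17, 0.24 and 0.19, none called) and below 0 scaled (-0.59, -0.62 and -0.53). With the compared groups alone, as deposited, CER1, CER6, CER4, WSD1 and MYB96 were higher at both 6 D and 9 D and KCS1 lower. Of all 18757 loci 9655 were then called at 6 D and 10662 at 9 D, against 4010 and 6139 in the model of all groups. At 12 D CER1, CYP96A15 and MYB96 were then higher and KCS1 and CER2 lower, and at 15 D CER4 and MYB96 were higher and KCS1 lower. With array weights the higher genes at 6 D were CER1, LACS2, CER6, WSD1, CER3 and MYB96, and those at 9 D were CER1, CER6, CER4, WSD1 and MYB96. At 12 D they were CER1, CER3 and MYB96, and at 15 D CYP96A15, CER4, WSD1 and MYB96. KCS1 was lower on all 4 days with array weights, and CER2 was lower from 9 D on. Over all loci array weights called 11512, 12549 and 13662 at 6 D, 9 D and 12 D, against 4010, 6139 and 8277 without them. Without pp7l 15 D replicate 3, CYP96A15 lost its call at 15 D and CER2 was lower (-0.76 ± 0.30, adjusted p = 0.0401). Without the 4 Col0 libraries that stood apart, CER1, CER6 and WSD1 also rose in pp7l at 6 D, CER6 at 9 D and WSD1 at 15 D as deposited. This omission also raised the calls over all loci, to 8911 at 6 D and 10773 at 9 D, against 4010 and 6139.

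pp7l and Col0 were then compared on each day. Before watering stopped, none of the 10 wax genes was called by limma as deposited (backgrounds of 18.8% higher and 1.43% lower), 3 were higher at an unadjusted p under 0.05, and CER6 and MYB96 were lower after scaling (2 of 10, background 18.1%). Without the 4 Col0 libraries that stood apart, none of which is in this comparison, CER1, LACS2, CER2 and CER3 were higher in pp7l at 0 D as deposited. Of all 18757 loci 8748 were then called, against 3794. CER2 was also called, at 0.98 ± 0.30, without Col0 0 D replicate 2 (adjusted p = 0.0241). With array weights CER1, LACS2, CER2 and CER3 were higher, and with the compared groups alone LACS2 and CER3 were higher and CYP96A15 and CER4 lower. These fits called 7201 and 7634 of all 18757 loci, against 3794 in the model of all groups. Group means of CER1 were 10.6 ± 1.32 TPM in pp7l and 6.17 ± 2.94 TPM in Col0 (SD, n = 3 each). Those of CER6 were 55.3 ± 1.51 TPM in pp7l and 60.6 ± 9.80 TPM in Col0 (SD, n = 3 each).

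At 6 D CYP96A15 and CER4 were lower in pp7l (2 of 10, background 2.93%) and MYB96 was higher (1 of 10, background 25.9%). Limma called none of the 10 with array weights (0 at an unadjusted p under 0.05) or with the compared groups alone (2 at an unadjusted p under 0.05). Neither fit called any of all 18757 loci. CYP96A15 had 0.247, 0.044 and 0.163 TPM in pp7l, against 4.07 and 23.0 TPM in Col0 (-3.26 ± 0.60, adjusted p = 5.24e-04, and -3.81 ± 0.48 scaled). After scaling CER6 and CER2 were also lower (4 of 10, background 17.5%), and MYB96 stayed higher (background 18.7%). MYB96 was higher by 1.09 ± 0.31 (adjusted p = 0.0126), by 1.78 ± 0.30 without Col0 6 D replicate 3, and by 0.40 ± 0.30 without replicate 1 (adjusted p = 0.644), so the call rests on replicate 1. CER4 was lower by -1.18 ± 0.35, by -1.90 ± 0.38 without Col0 6 D replicate 1 and by -0.46 ± 0.38 without replicate 3 (adjusted p = 0.285). Without Col0 6 D replicate 3, CER1 (2.44), CER3 (1.35), LACS2 (2.11), KCS1 (1.25) and WSD1 (0.76) were higher in pp7l, and CYP96A15 differed by -2.14 ± 0.67. Without the 4 libraries that stood apart, CYP96A15, CER6 and CER4 were lower and none was higher in both fits.

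At 9 D, 8 of 10 wax genes were lower in pp7l than in Col0, where 11.6% of all loci were, and none was higher, where 3.05% were. After scaling 9 of 10 were lower (background 13.1%) and none higher (background 8.91%). The median difference was -2.08 as deposited and -1.79 scaled, beside -0.19 and -0.02 for all loci. CYP96A15 had 0.0772, 0.173 and 1.42 TPM in pp7l, against 87.4, 72.1 and 74.1 TPM in Col0 (-5.76 ± 0.54, adjusted p = 4.78e-09, and -5.28 ± 0.43 scaled). CER4 had 0.472, 0.649 and 0.646 TPM in pp7l, against 22.4, 18.5 and 18.3 TPM in Col0 (-3.70 ± 0.32, adjusted p = 1.17e-09, and -3.27 ± 0.23 scaled). These genes of the mid-chain oxidation and alcohol steps showed the widest gaps.

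The alkane genes were lower in pp7l at 9 D as well. CER1 had 15.3, 16.2 and 15.1 TPM in pp7l, against 79.7, 86.2 and 79.0 TPM in Col0 (-2.32 ± 0.44, adjusted p = 3.06e-04, and -2.09 ± 0.29 scaled). CER3 had 7.11, 6.82 and 9.35 TPM in pp7l, against 42.9, 43.1 and 38.3 TPM in Col0 (-2.29 ± 0.34, adjusted p = 1.17e-05, and -2.04 ± 0.17 scaled). WSD1 (-2.14 ± 0.29), KCS1 (-2.02 ± 0.30) and CER2 (-1.33 ± 0.28) were lower as well. CER6 had 82.1, 86.1 and 80.1 TPM in pp7l, against 160, 170 and 163 TPM in Col0 (-0.98 ± 0.31, adjusted p = 0.0341, and -0.77 ± 0.24 scaled), and it missed the threshold without any 1 of the 6 libraries compared (adjusted p = 0.0759 to 0.102). LACS2 differed by -0.86 ± 0.33 (adjusted p = 0.0842), and by -0.64 ± 0.21 scaled (adjusted p = 0.0271). MYB96 had 4.64, 5.55 and 6.05 TPM in pp7l, against 6.09, 5.30 and 6.12 TPM in Col0, and its difference of -0.10 ± 0.27 did not pass (adjusted p = 0.868).

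At 12 D CYP96A15, CER4 and WSD1 were lower in pp7l (3 of 10, background 25.4%) and LACS2 was higher (1 of 10, background 17.2%). After scaling CER3 was also lower (4 of 10, background 24.7%) and CER2 also higher (2 of 10, background 24.2%). CER4 had 0.250, 0.928 and 0.243 TPM in pp7l, against 4.66, 3.05 and 3.43 TPM in Col0 (-1.69 ± 0.32, adjusted p = 8.88e-05). CYP96A15 differed by -1.52 ± 0.54 (adjusted p = 0.0238) and lost the call without any 1 of 4 libraries, 2 of each genotype (adjusted p = 0.0515 to 0.0791). LACS2 had 6.06, 4.5 and 4.38 TPM in pp7l, against 1.91, 1.44 and 1.63 TPM in Col0. With array weights and with the compared groups alone, CER3 and MYB96 were also lower and CER2 also higher. Array weights called 12225 of all 18757 loci, against 7979 without them. Without the 4 libraries that stood apart, CER3 and MYB96 were also lower as deposited, and CER3 was no longer lower after scaling.

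At 15 D all 10 wax genes were higher in pp7l as deposited, where 77.5% of all loci were higher and 4.46% lower. After scaling 7 of 10 were higher (background 30.9%) and none lower (background 32.8%). CER1 had 11.8, 12.5 and 27.1 TPM in pp7l, against 0.708, 0.594 and 0.255 TPM in Col0 (3.49 ± 0.44, adjusted p = 9.07e-08, and 2.20 ± 0.29 scaled, adjusted p = 5.64e-07). CER6 had 52.5, 61.8 and 86.9 TPM in pp7l, against 6.45, 5.83 and 1.94 TPM in Col0 (3.65 ± 0.31, adjusted p = 2.33e-10, and 1.68 ± 0.24 scaled). LACS2 (2.42 and 1.41 scaled), KCS1 (2.03 and 0.65) and CER2 (1.96 and 0.99) were higher in both fits. CER3 (1.53) and MYB96 (1.48) lost the call and turned to -0.23 and -0.19 after scaling, and WSD1 (1.09) was at 0.45 ± 0.21 scaled (adjusted p = 0.0642). CYP96A15 (1.86 ± 0.54) stood at 0.81 ± 0.40 without pp7l 15 D replicate 3 (adjusted p = 0.0657), and CER4 (1.24 ± 0.32) at 0.69 ± 0.27 (adjusted p = 0.0199). Without the 4 Col0 libraries that stood apart, Col0 at 15 D is replicate 2 alone, in which AT1G15405 took 46.0% of the total. All 10 differences were then above 0 as deposited. After scaling those of CER1, CER6, CER2, KCS1 and LACS2 stayed above 0, and CER3 and MYB96 stood at -0.16 and -0.24. These values rest on that 1 library.

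**Figure D3:**
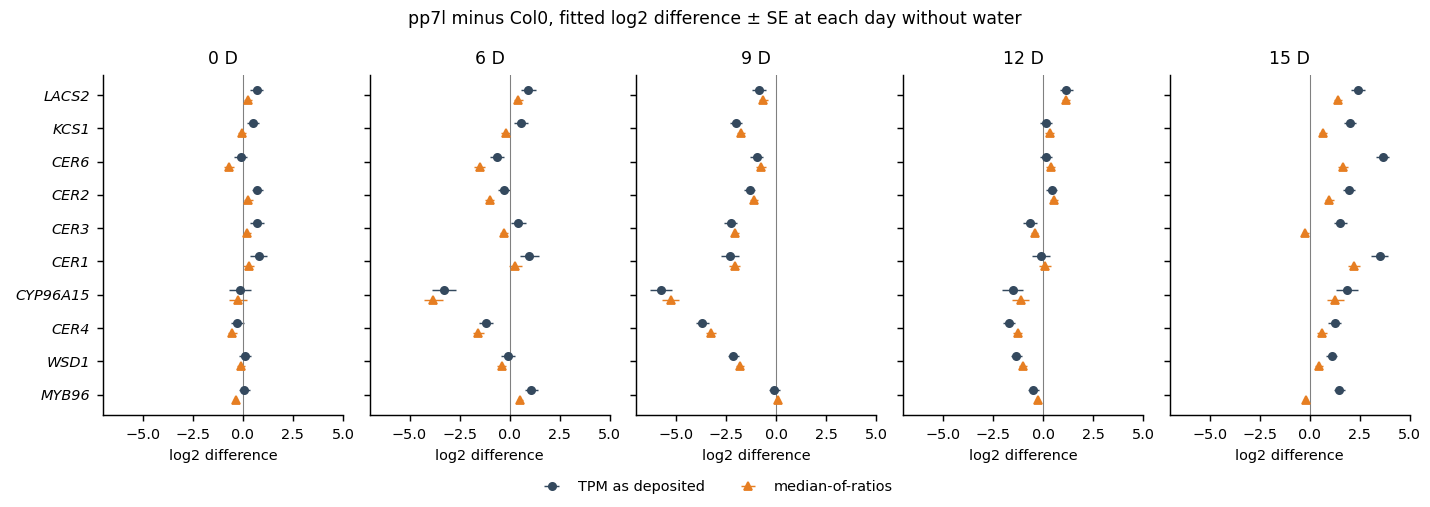
Fitted log2 difference of pp7l minus Col0 with its standard error (x axis) for each wax gene (rows), in 1 panel per day, for TPM as deposited (circles) and after median-of-ratios scaling (triangles). At 9 D the points of 9 genes lie left of 0 in both fits, and at 15 D all 10 lie right of 0 as deposited, with CER3 and MYB96 at -0.23 and -0.19 after scaling.

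The change from 0 D was compared between the genotypes in the same model. At 9 D the change in pp7l minus that in Col0 was below 0 and called for 8 of 10 wax genes in both fits, where 15% of all loci were lower as deposited and 9.34% scaled. For KCS1 this joined a fall in pp7l with a rise in Col0 as deposited, and a fall in pp7l with no called change in Col0 after scaling. For CER2 and CER3 it joined a called fall in pp7l with a called rise in Col0 after scaling. None of the 10 was higher, where 0.512% of all loci were as deposited and 5.29% scaled. The exceptions were CER6 (-0.86 ± 0.45, adjusted p = 0.186, and -0.06 ± 0.34 scaled) and MYB96 (-0.17 ± 0.39, adjusted p = 0.796, and 0.43 ± 0.18 scaled). LACS2 (-1.55 ± 0.47, adjusted p = 0.0252) lost this call without any 1 of 4 libraries (adjusted p = 0.0538 to 0.0692). At 15 D the change was higher in pp7l for 8 of 10 as deposited (background 51%) and 7 of 10 scaled (background 23.5%). None of the 10 was lower there as deposited (background 3.39%). The genes not called as deposited were CER3 and WSD1, and MYB96 was lost by scaling. CYP96A15 at 15 D (2.00 ± 0.76) stood at 0.96 ± 0.54 without pp7l 15 D replicate 3 (adjusted p = 0.139) and at 1.95 ± 0.85 without Col0 15 D replicate 3 (adjusted p = 0.0657). WSD1 was called higher at 15 D without any 1 of 3 pp7l libraries (adjusted p = 0.0174 to 0.0403). At 6 D only CYP96A15 was called lower (1 of 10, background 1.7%) and none higher (background 1.92%). That call was lost without any 1 of 6 libraries (adjusted p = 0.0519 to 0.0631), with array weights and with the compared groups alone. After scaling MYB96 was higher and CYP96A15, CER2 and CER4 were lower (1 and 3 of 10, backgrounds of 16.5% and 14.1%). At 12 D CER3, CER4 and WSD1 were lower (3 of 10, background 32.6%) and none was higher (background 9.02%). The call of CER3 was lost without any 1 of 4 libraries (adjusted p = 0.0503 to 0.0616). After scaling LACS2 and CER6 were higher, and WSD1 and CER3 lower (2 of 10 each, backgrounds of 22.7% and 23.5%).

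Some calls also changed when a library outside the groups compared was left out, which alters the pooled spread and not the change itself. Without either library of Col0 6 D, LACS2 in Col0 at 12 D (adjusted p = 0.0149 and 0.0151) and CER3 in Col0 at 15 D (0.0274 each) were lower than at 0 D. In pp7l against 0 D, CER1, CER6 and WSD1 were then higher at 6 D (adjusted p = 0.0372 to 0.0468) and WSD1 at 15 D (0.0106 and 0.0107). Between the genotypes, CER1, LACS2, CER2 and CER3 were then higher in pp7l at 0 D (adjusted p = 0.00521 to 0.0311), LACS2 was lower at 9 D (9.30e-04 and 9.52e-04) and CER3 lower at 12 D (0.0305 and 0.0306). Calls over all loci rose as well, to 6318 with either omission at 0 D, against 3794, and to 4476 and 4480 at 9 D, against 2746. The differences of changes of WSD1 (adjusted p = 0.00923 and 0.00926) and CER3 (0.0440 and 0.0441) at 15 D, and the rise of MYB96 in Col0 at 12 D versus 9 D (0.0142 each), passed as well. Without Col0 15 D replicate 3 the calls gained were CER6 in pp7l at 6 D (adjusted p = 0.0193) and 9 D (0.0402) and MYB96 in Col0 at 12 D versus 9 D (0.0234). Between the genotypes that omission also made CER6 lower in pp7l at 6 D (adjusted p = 0.0421) and its difference of changes pass at 9 D (0.0451). Without pp7l 15 D replicate 3, WSD1 rose in Col0 at 6 D (adjusted p = 0.0396) and the difference of changes of CYP96A15 passed at 12 D (0.0319).

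Ratios of 2 transcripts within a library do not depend on the scaling of that library, and they were chosen for display after the levels had been seen, so they are given without tests. The ratio of CER1 to CER6, the alkane step to the elongase, stayed between 0.165 and 0.312 in all 15 pp7l libraries. In pp7l at 9 D it was 0.187, 0.188 and 0.189, against 0.499, 0.506 and 0.485 in Col0. In Col0 it ran from 0.0583 to 0.125 at 0 D, and at 15 D it was back at 0.102 to 0.131. Within Col0, CER1 thus gained on CER6 at 9 D and lost that gain by 15 D. In Col0 at 12 D, with 0.245 to 0.311, it was within the range of pp7l.

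CER1 and CER3, which act at the same step, kept a ratio of 1.86 to 2.06 in Col0 at 9 D and of 0.729 to 1.75 at 0 D. In Col0 at 15 D the ratio was 0.184, 0.200 and 0.231, below all other libraries. In pp7l at 15 D it was 1.82, 1.64 and 1.91. CER1 therefore fell further than its partner CER3 in the 3 Col0 libraries of 15 D, among them the 2 with high rRNA shares and the 1 without.

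The ratio of MYB96 to CER1 was 3.07 to 4.57 in Col0 at 15 D and 0.0614 to 0.0776 in Col0 at 9 D, and 0.146 to 0.592 in pp7l throughout. CER1 transcript per MYB96 transcript was thus highest in Col0 at 9 D and lowest in Col0 at 15 D. The ratio of KCS1 to CER6 in pp7l was 0.343, 0.293 and 0.300 at 0 D and 0.0705 to 0.0878 at 9 D, and 0.0794 to 0.0963 at 15 D. CYP96A15 to CER1 was 0.837 to 1.10 in Col0 at 9 D, against 0.00789 to 0.0421 at 0 D. It was 1.62 and 0.901 at 6 D, the first of these the highest of all libraries, and 0.146 to 0.250 at 12 D. In pp7l it was at most 0.137, except for 0.597 in replicate 3 of 15 D. CYP96A15 therefore moved with a wider swing than CER1, which acts before it.

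**Figure D4:**
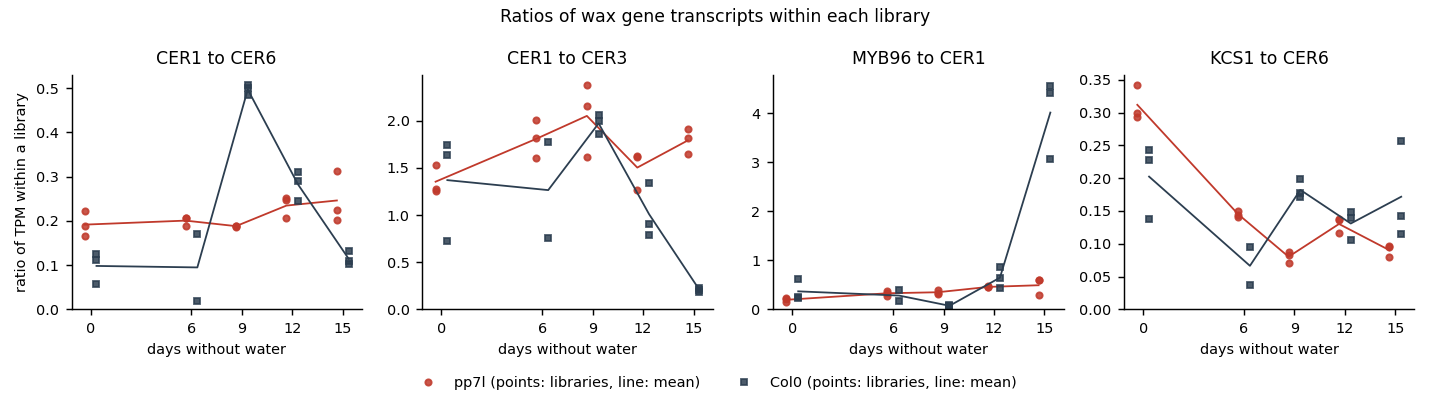
Ratio of 2 wax gene transcripts within each library (y axis) against days without water (x axis), with pp7l as red circles drawn left of Col0 as dark squares; points are libraries and lines join group means. CER1 to CER6 stays between 0.165 and 0.312 in pp7l and reaches 0.485 to 0.506 in Col0 at 9 D, and MYB96 to CER1 is highest in Col0 at 15 D, at 3.07 to 4.57.

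The rest of the pathway was described from fixed lists of 57 other genes for elongation, alkane and ester branches, export, cutin and regulation, of which 54 were tested. In Col0 at 9 D, 36 rose and 1 fell as deposited, where 64.8% and 2.88% of all loci did. After scaling 19 were higher and 20 lower (backgrounds of 26.2% and 25.1%), beside 7 higher and none lower of the 10 wax genes. The share that rose as deposited was near that of all loci. KCS2, a condensing enzyme active in suberin and under osmotic stress, rose by 2.63 ± 0.22, to 6.47 ± 0.699 TPM at 9 D, against 0.202 ± 0.0682 TPM at 0 D (SD, n = 3 each). LACS1 (CER8), a wax acyl-CoA synthetase, rose by 2.33 ± 0.25, and ABCG11, a transporter of wax and cutin lipids, by 2.15 ± 0.34. These 3 were also higher after scaling, by 1.96, 1.24 and 0.88. KCR1 (1.33) and CER10 (1.29), reductases of the elongase, rose as deposited and stood at 0.02 and -0.05 scaled.

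Cutin is the polyester in which wax is embedded. Of 11 cutin genes, 7 rose at 9 D, a share near the 64.8% of all loci, and 5 were higher and 4 lower after scaling. All 11 fell from 9 D to 12 D in both fits, where 21.6% of all loci fell as deposited and 27.6% scaled. AT5G33370 had the largest fall, by 4.63 ± 0.49, to 1.05 ± 1.29 TPM at 12 D, against 43.8 ± 3.9 TPM at 9 D (SD, n = 3 each). CYP77A6, which hydroxylates cutin monomers in flowers, fell by 3.06 ± 0.27, and CYP86A4 by 2.58 ± 0.21. All 11 cutin genes were also lower at 15 D than at 0 D in both fits (backgrounds of 34.7% as deposited and 34% scaled), led by the hydroxylase CYP86A2 (-4.5 ± 0.29), the acyltransferase GPAT8 (-3.12 ± 0.25) and HTH (-2.7 ± 0.35).

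Not every pathway gene fell from 9 D to 12 D in Col0. Over the lists 5 rose and 32 fell, where 23.4% and 21.6% of all loci did (6 and 34 scaled, with backgrounds of 24.8% and 27.6%). MYB94, a MYB factor that acts with MYB96 on wax genes, rose by 1.73 ± 0.32, to 23.1 ± 7.46 TPM at 12 D, against 6.07 ± 0.679 TPM at 9 D (SD, n = 3 each), and by 1.53 scaled. KCS3 rose to 112 ± 10.5 TPM, against 28.6 ± 4.08 TPM at 9 D (1.93 ± 0.44, and 1.78 scaled), and KCS4 rose by 2.17 ± 0.34. The enoyl-CoA reductase CER10 fell by 2.21 ± 0.28 and the cuticle factor MYB16 by 1.98 ± 0.32.

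Between the genotypes at 9 D, 21 of 54 pathway genes were lower in pp7l and 2 higher, where 11.6% and 3.05% of all loci were (23 and 4 scaled, with backgrounds of 13.1% and 8.91%). AT5G33370 had 4.14 ± 1.98 TPM in pp7l and 43.8 ± 3.9 TPM in Col0 (SD, n = 3 each), a difference of -3.19 ± 0.49. CYP77A6 (-1.94 ± 0.27), KCS12 (-1.88 ± 0.22) and CER10 (-1.47 ± 0.28) were lower, and KCS8 was higher (1.35 ± 0.38, adjusted p = 0.0137, and up to 0.0595 with 1 library left out). At 15 D, 45 were higher in pp7l and none lower as deposited, where 77.5% and 4.46% of all loci were, and 28 were higher and 16 lower after scaling, where 30.9% and 32.8% were. The share higher as deposited was near that of all loci. Of the 11 cutin genes 11 were higher there, and 10 after scaling. In pp7l itself, 15 D versus 0 D gave 11 higher and 7 lower genes (backgrounds of 49.3% and 5.7%), and 2 and 24 after scaling (21.8% and 22.8%). SHN3, a regulator of cuticle genes, had the largest rise there, to 8.50 ± 0.964 TPM at 15 D, against 0.125 ± 0.0673 TPM at 0 D (SD, n = 3 each, 3.07 ± 0.29, and 2.46 scaled).

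Markers of the tissues that could carry these transcripts were summed in each library. The epidermis, where wax is made, was represented by 8 markers, none at 0 in any library. Their sum in Col0 was 27.4, 31.6 and 17.7 TPM at 0 D, 58.4 and 46.3 TPM at 6 D, 37.8, 43.9 and 41.6 TPM at 9 D, 19.3, 21.1 and 17.7 TPM at 12 D, and 5.32, 4.05 and 1.69 TPM at 15 D. In pp7l it ranged from 33.9 to 57.6 TPM. After scaling the course differed. The scaled sum in Col0 was 34.8 to 47.8 TPM at 0 D, 166 and 38.1 TPM at 6 D, and 23.9 to 29.5 TPM at 9 D. It was 11.4 to 11.8 TPM at 12 D and 8.67 to 10.5 TPM at 15 D. In pp7l the scaled sum went from 58.7 to 65.1 TPM at 0 D down to 24.8 to 33.3 TPM at 15 D. At 9 D the sum as deposited was 47.3, 45.4 and 57.6 TPM in pp7l, above all Col0 libraries of that day. The scaled sum at 9 D was 36.3 to 41.1 TPM in pp7l, against 23.9 to 29.5 TPM in Col0. For single markers at 9 D limma called 0 of the 8 markers between pp7l and Col0 as deposited (backgrounds of 3.05% higher and 11.6% lower). It gave 0 at an unadjusted p under 0.05, and 1 higher in pp7l after scaling (background 8.91%). At 15 D all 8 were higher in pp7l as deposited, where 77.5% of all loci were, and 5 after scaling, where 30.9% were. From 9 D to 12 D in Col0, 4 of the 8 epidermis markers fell as deposited and 5 scaled, with backgrounds of 21.6% and 27.6%. The part of epidermis in that step and in the 15 D differences was not tested.

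The summed level of 7 floral organ markers (AP1, AP3, PI, AG, SEP1, SEP2 and SEP3) was highest in Col0 at 9 D, as were the wax enzymes as deposited. Their sum in Col0 was 1.02, 1.09 and 1.43 TPM at 0 D, 6.22 and 19.6 TPM at 6 D, and 36.0, 35.6 and 42.3 TPM at 9 D. It was 22.7, 23.5 and 28.9 TPM at 12 D and 6.54, 5.41 and 1.39 TPM at 15 D. At 12 D the floral sum thus stayed above 0 D. As deposited, the Col0 means of CER1, CER3, CYP96A15, CER4, WSD1 and MYB96 also lay above those of 0 D at 12 D. Those of CER6, CER2, KCS1 and LACS2 lay below. Of the latter only KCS1 was called lower as deposited, and all of them after scaling. In pp7l it was 0.279 to 0.477 TPM at 0 D, with 4 to 5 of the 7 markers at 0, and 0.257 to 0.494 TPM at 6 D, with 1 to 4 at 0. It was 1.79 to 4.02 TPM at 9 D, 2.22 to 3.24 TPM at 12 D and 2.88, 4.05 and 13.7 TPM at 15 D, with none at 0. In Col0 up to 2 markers were at 0 at 0 D and 1 in replicate 2 of 15 D. The pp7l library with 13.7 TPM, replicate 3, was also the 1 with 16.2 TPM of CYP96A15 and 4.81 TPM of CER4. All 7 markers were lower in pp7l than in Col0 at 9 D in both fits, where 11.6% of all loci were lower as deposited and 13.1% scaled. From 9 D to 12 D in Col0, 3 of the 7 floral markers fell in both fits, with backgrounds of 21.6% as deposited and 27.6% scaled. The level of floral transcripts therefore also differed between these samples, and its part in the wax gene differences was not tested.

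A list of 7 markers of suberised root and seed coat, tissues that also use very-long-chain lipids, had sums of 20.0 to 21.1 TPM in Col0 at 9 D and 3.20 to 4.79 TPM at 0 D. In pp7l the sums were 22.4 to 23.3 TPM at 6 D and 15.1 to 16.9 TPM at 9 D, against 7.18 to 8.86 TPM at 0 D. At 9 D 1 of the 7 markers was lower in pp7l than in Col0, where 11.6% of all loci were lower as deposited. Their part in the wax gene values was not tested.

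**Figure D5:**
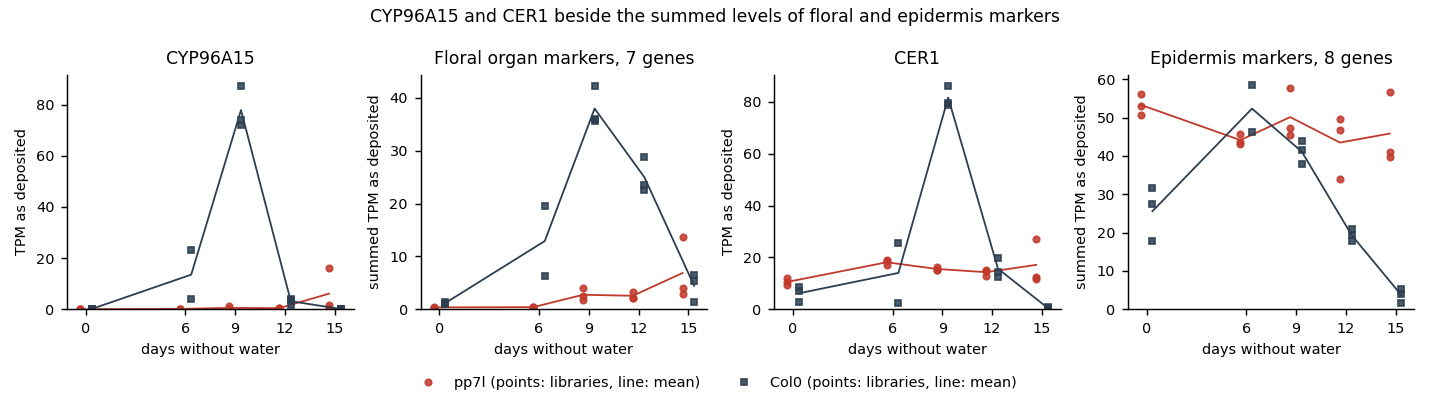
CYP96A15 and CER1 (TPM as deposited) beside the summed TPM of 7 floral organ markers and 8 epidermis markers (y axes) against days without water (x axis), with pp7l as red circles drawn left of Col0 as dark squares; points are libraries and lines join group means. The floral sum peaks with the wax genes in Col0 at 9 D (35.6 to 42.3 TPM, against 1.79 to 4.02 TPM in pp7l), and the epidermis sums at 9 D are 45.4 to 57.6 TPM in pp7l and 37.8 to 43.9 TPM in Col0.

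Likeness of time course was measured as Pearson's r over the 10 group means of scaled log2(TPM + 1), as a description over points that share libraries. The 5 loci outside the wax set nearest to CER1 were AT1G75280 (0.938), PMEPCRF (AT5G53370, 0.930), ACLA-1 (AT1G10670, 0.920), SK42 (AT1G57870, 0.917) and CKL2 (AT1G72710, 0.915). The 8 other wax genes besides MYB96 had 0.630 to 0.800, with LACS2 highest, and MYB96 had -0.33. Nearest to MYB96 were KIN1 (AT5G15960, 0.973), AT3G02480 (0.970), IDD7 (AT1G55110, 0.951), AT1G73040 (0.951) and AT1G33970 (0.948). KIN1 is known as a cold- and abscisic acid-induced gene. Against MYB96 the wax enzymes ran from -0.79 for CER2 to 0.04 for WSD1, the highest value among them.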

How the data were processed

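The authors deposited TPM values per locus in a single file. Per the submitters' processing notes, the reads were handled with Trimmomatic, FastQC and Salmon and the genome was TAIR10, with versions not given in the sources used here. Per the labels' protocols, total RNA of whole plants was made into Illumina TruSeq libraries. All 29 columns were matched to samples by genotype, day and replicate number, and 0 pairs of libraries were identical. The table holds no counts, so the depth of a library and its counting error are not known.

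Tests were run with limma 3.58.1 in R 4.3.3 on log2(TPM + 1), in 1 model of 10 group means with an intensity trend and 19 residual degrees of freedom. They covered the 18757 loci that reached 1 TPM in 3 or more libraries, with Benjamini-Hochberg adjustment over these loci in each comparison at 0.05. The procedure was tested on simulated data. Later days were compared with 0 D, pp7l with Col0 on each day, and the change from 0 D between genotypes. Scaled values are TPM divided by median-of-ratios factors, computed over 15623 loci above 0 in every library, which ranged from 0.161 to 1.85. The file was read in R by data.table (version 1.17.8), and tables and figures used Python 3.11.15 with pandas 2.3.3, numpy 2.4.6 and matplotlib 3.10.9.

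Alternatives were a pseudocount of 0.1, no filter, scaling, TPM over nuclear loci without the 4 rRNA loci, array weights, a model of the compared groups alone, the replicate number as a block, and each library left out. Added after the values were seen were the comparisons of 12 D with 9 D and of 15 D with 12 D in Col0, the omission of 4 libraries, and the ratios. The members, the gene lists and the tests were chosen with earlier results of these data known. All 10 members are named. From each other list at most 3 called genes with the largest changes were eligible, and the loci most like CER1 and MYB96 were the top 5 with a group mean of at least 10 TPM. Replicate numbers met the rule for pairing (every same-number correlation of deviations over 0.1) in the comparison of pp7l with Col0 at 15 D alone, with 0.134, 0.124 and 0.265.

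Names, coordinates and sequences came from the RefSeq assembly TAIR10.1, in which 32954 of the 33681 loci were found, all 10 members included. Upstream windows of 250 bases were read from its genome.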

Additional observations from a re-analysis of the deposited data

Results flagged for a closer look

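The change from 0 D differed between pp7l and Col0, by the interaction term of the limma model, for the following values (log2 change of pp7l minus log2 change of Col0, with SE). At 6 D the term was -3.12 ± 0.80 for CYP96A15. At 9 D it was -5.61 ± 0.76 for CYP96A15, -3.42 ± 0.45 for CER4, -3.10 ± 0.62 for CER1 and -2.99 ± 0.48 for CER3. In the same comparison it was -2.52 ± 0.42 for KCS1, -2.26 ± 0.42 for WSD1, -2.06 ± 0.40 for CER2 and -1.55 ± 0.47 for LACS2. Each of these terms was below 0. For KCS1 the changes at 9 D were called in opposite directions as deposited, -1.26 in pp7l and 1.26 in Col0 (-1.77 and -0.05 after scaling). The pp7l mean of CER2 was also below that of 0 D, at 4.93 against 6.26 TPM, without a call as deposited. After scaling CER2 and CER3 were called in opposite directions, higher in Col0 and lower in pp7l.

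At 12 D the term was -1.45 ± 0.42 for WSD1, -1.41 ± 0.45 for CER4 and -1.36 ± 0.48 for CER3, and after scaling CER4 no longer passed (adjusted p = 0.0681). At 15 D the term was above 0 for CER6 (3.77 ± 0.45), CER1 (2.71 ± 0.62), CYP96A15 (2.00 ± 0.76), LACS2 (1.73 ± 0.47), KCS1 (1.53 ± 0.42), CER4 (1.53 ± 0.45), MYB96 (1.41 ± 0.39) and CER2 (1.23 ± 0.40). That of MYB96 was 0.16 ± 0.18 after scaling. Without pp7l 15 D replicate 3 the term of CYP96A15 was 0.96 and that of CER4 was 0.98. No test for a single outlying library was made, since no group held more than 3 libraries.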

How the results depend on the processing

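The rise of all 10 wax genes in Col0 at 9 D kept at least 7 calls under every alternative, and 10 with any library left out. Depth is not known, and groups of 2 and 3 libraries limit the precision. Counts of called genes that moved by over 1.5 times are given here, with the count as reported in brackets, and the cause was not tested. With scaling they were 6 (3) for Col0 at 6 D, 3 (1), 4 (2), 4 (2) and 8 (4) for pp7l at 6 D, 9 D, 12 D and 15 D against 0 D, 2 (0) at 0 D and 5 (3) at 6 D between pp7l and Col0, and 4 (1) for the difference of changes at 6 D. With TPM over nuclear loci without rRNA they were 7 (3) for Col0 at 6 D, 2 (1) for pp7l at 6 D, and 2 (1) and 1 (3) for the difference of changes at 6 D and 12 D.

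With array weights limma gave 0 (3) for Col0 at 6 D, 7 (1), 7 (2) and 5 (2) for pp7l at 6 D, 9 D and 12 D, 4 (0), 0 (3) and 7 (4) between pp7l and Col0 at 0 D, 6 D and 12 D, and 0 (1) for the difference of changes at 6 D. In a model of the compared groups alone it gave 0 (3) for Col0 at 6 D, 6 (1), 6 (2) and 5 (2) for pp7l at 6 D, 9 D and 12 D, 4 (0), 0 (3) and 7 (4) between pp7l and Col0 at 0 D, 6 D and 12 D, and 0 (1) and 5 (3) for the difference of changes at 6 D and 12 D. The counts of 0 at 6 D had 0 genes at an unadjusted p under 0.05 with array weights and 3, 2 and 1 with the compared groups alone. Over all 18757 loci array weights called 2, 0 and 0 in these 3 comparisons, and the compared groups alone called 0, 0 and 201. A pseudocount of 0.1 and no filter each gave 0 (1) for the difference of changes at 6 D, with 2 and 3 genes at an unadjusted p under 0.05.

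Without the 4 libraries that stood apart, limma gave 9 (3) for Col0 at 6 D, 4 (1) for pp7l at 6 D, 4 (0) between pp7l and Col0 at 0 D, and 5 (1) and 5 (3) for the difference of changes at 6 D and 12 D. With scaling as well it gave 5 (3) for Col0 at 6 D, 3 (1), 4 (2), 5 (2) and 8 (4) for pp7l at 6 D to 15 D, 2 (0) at 0 D and 5 (10) at 15 D between pp7l and Col0, 5 (10) for Col0 at 15 D versus 12 D, and 3 (1) and 5 (8) for the difference of changes at 6 D and 15 D.

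With 1 library left out, counts ranged over 2 to 9, 10 to 10, 6 to 8 and 5 to 6 for Col0 at 6 D, 9 D, 12 D and 15 D, and over 1 to 4, 2 to 3, 2 to 2 and 4 to 5 for pp7l. For pp7l versus Col0 they ranged over 0 to 4, 2 to 7, 7 to 9, 3 to 5 and 9 to 10 from 0 D to 15 D. They ranged over 9 to 10 for Col0 at 12 D versus 9 D and 10 to 10 at 15 D versus 12 D, and over 0 to 4, 7 to 9, 2 to 4 and 7 to 10 for the difference of changes at 6 D to 15 D. Of single-gene values with 1 library left out, 5391 kept direction and call, 63 gained a call, 54 lost it and 2 turned sign, LACS2 in Col0 at 6 D and WSD1 between pp7l and Col0 at 6 D. The values of LACS2 ranged from -1.13 to 1.23 and those of WSD1 from -0.93 to 0.76, and both turned without Col0 6 D replicate 3.

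Signs also turned with scaling. KCS1 in Col0 at 9 D was then -0.048 with all libraries and without the 4, and CER1 in Col0 at 12 D was -0.066 with all and -0.00049 without the 4. In pp7l at 15 D, LACS2 (-0.53), CER6 (-0.62) and CER3 (-0.59) turned in both, as did MYB96 for pp7l versus Col0 at 0 D (-0.35). For pp7l versus Col0 at 15 D, CER3 was -0.23 with all libraries and -0.16 without the 4, and MYB96 was -0.19 and -0.24. Scaled and without the 4, CER6 in pp7l at 12 D was -0.55, MYB96 in Col0 at 15 D versus 12 D was 0.13, and the difference of changes of MYB96 at 9 D was 0.43. Unscaled and without the 4, the difference of changes of LACS2 at 6 D was -0.94.

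With the replicate block the count for pp7l versus Col0 at 15 D, the comparison whose numbers pair, was 10 as without it. Elsewhere the samples share a number without shown pairing. There the block gave 6 in place of 7 for Col0 at 12 D (KCS1 lost) and 9 in place of 8 for the difference of changes at 15 D (WSD1 gained), and the other counts did not change.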
